A study of Mus musculus with 24 samples.

Results

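Untreated mouse embryoid bodies at day 6 of differentiation were compared with untreated embryoid bodies at day 4. The comparison used the 3 arrays of each day, 6 of the 24 arrays in the study, taken by their labels. All 21789 probe sets that carry a single gene symbol entered, out of 35556 on the array, and they measured 19938 genes. Embryoid bodies are aggregates in which embryonic stem cells differentiate, and here they came from a single mouse line, 46C, which carries a reporter in the Sox1 gene. Differentiation began on day 1 on gelatin in medium with LIF, a cytokine that sustains stem cells, and the cells moved to low attachment dishes on day 3. Plating followed on day 7 and a change to serum-free medium on day 8, so both days compared here lie in suspension culture before either step. The untreated day 6 and day 4 arrays received no drug. Other groups were untreated embryoid bodies at days 8 and 12, and embryoid bodies kept from day 3 to day 8 in 2 calcineurin inhibitors, FK506 at 100 ng/ml together with cyclosporin A at 1 ug/ml, and collected on the same 4 days. The drug-treated arrays at days 4 and 6 were used below for a comparison of the same interval.

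In the mouse embryo the pluripotent epiblast forms the primitive streak, where cells leave the epithelium and become mesoderm and definitive endoderm. Nodal, Wnt and BMP signals induce the streak, while their secreted antagonists, among them Lefty and Cerberus-family proteins, limit it. Embryoid bodies pass through related states without the embryo's spatial order. The question the comparison answers is which genes separate these 2 days of culture.

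Levels are log2 signals from robust multiarray averaging (RMA), given for replicates 1, 2 and 3 in that order. Differences are day 6 minus day 4 on the log2 scale with the SE of the fit (n = 3 arrays each). The words rose and fell are used of genes for which limma's moderated test gave an adjusted p under 0.05. The array medians were 7.85 to 7.86 at day 6 and 7.80 to 7.83 at day 4, against 7.80 to 7.88 over the study. The spread of levels within an array differed somewhat, with interquartile ranges of 3.42 to 3.47 at day 6 and 3.17 to 3.33 at day 4. In whole aggregates, more cells of a type and more RNA per cell cannot be told apart.

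Array by array, 2 libraries stood somewhat apart. Day 6 replicate 2 had the lowest level of the 3 day 6 arrays in 135 of the 281 genes (1.41% of 19938) that rose at least 2-fold. Over all 4215 genes that rose, replicate 1 was the lowest day 6 array in 2053 and replicate 2 in 1015. Among genes that rose, replicate 2 was the lowest day 6 array in 13 of 14 streak genes and 9 of 9 definitive endoderm genes. Gene lists share members, with Cer1 and Foxa2 in both of these, so counts of different lists are not separate findings. Day 4 replicate 1 was the lowest day 4 array for 2533 of the 4215 genes that rose (21.1%) and the highest for 2476 of the 4164 that fell (20.9%), and without it 3404 genes rose and 2635 fell. Counts for the gene lists below were repeated without each of these 2 arrays, and a count of 3 or more is given again where it moved by over 1.5 times. Without replicate 2 the streak median went from 0.86 to 1.02 and the definitive endoderm median from 0.76 to 0.84. For those lists this is thus not a strict check. Lists were not recounted without day 6 replicate 1 or replicate 3.

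In every array the mean of the pluripotency markers was lower at day 6 than at day 4. The means of the streak and definitive endoderm markers were higher. Levels of different marker sets were not compared with each other. The mean of 5 pluripotency markers was 11.58 to 11.74 per array at day 6 and 11.99 to 12.18 at day 4. For 5 streak markers it was 9.48 to 10.20 at day 6, against 8.07 to 8.28 at day 4. The mean of 4 definitive endoderm markers was 8.19 to 8.94 at day 6 and 7.47 to 7.68 at day 4. Marker sets of visceral endoderm, neural plate, neuron, endothelium, cardiac muscle and fibroblast lay lower at day 6 than at day 4 in every array. Most single members of these sets did not pass the test, no fibroblast marker did, and some members were higher at day 6. All genes with mean levels from 6.37 to 7.61 had a median difference of -0.20, so small falls at such levels are not particular to these sets. The sets for blood, with 6.85 to 7.03 at day 6 against 6.93 to 7.19 at day 4, and trophoblast, with 6.34 to 6.67 against 6.25 to 6.53, overlapped. RMA levels have no true 0, and no detection calls accompanied the values, so a low level was not shown to lie above background.

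Sequences of the miR-302 and miR-367 microRNAs are given first, because its genes were among the largest rises. They form a cluster of microRNAs of pluripotent and early differentiating cells, and the 5 genes were chosen after their values had been seen. The hairpins lie within 580 bases at chr3:127545228-127545807 on the plus strand of GRCm38.p6. Mature sequences come from RefSeq with that build, with bases 2 to 8, the seed that pairs with target mRNAs, in capitals.
mmu-miR-302b-3p (chr3:127545275-127545297): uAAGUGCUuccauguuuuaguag
mmu-miR-302c-3p (chr3:127545406-127545427): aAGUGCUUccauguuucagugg
mmu-miR-302d-3p (chr3:127545665-127545687): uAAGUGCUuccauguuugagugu
mmu-miR-367-3p (chr3:127545779-127545800): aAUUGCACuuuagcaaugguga
The miR-302b and miR-302d sequences share the seed AAGUGCU. The miR-302c entry starts 1 base later, so its bases 2 to 8 read AGUGCUU within the same run of letters. miR-367 carries a different seed, AUUGCAC. The mature sequence of miR-302a-3p is not shown.

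All 5 genes of the cluster rose. Mir302c had levels of 10.89, 10.91 and 11.13 at day 6, against 8.82, 8.57 and 6.48 at day 4. The day 6 arrays lay close together above every day 4 array, and day 4 replicate 3 was far below the other 2 day 4 arrays. The difference was 3.01. Mir367 stood at 8.68, 8.71 and 8.80 at day 6 and at 5.55, 5.79 and 4.33 at day 4, a difference of 3.50. Mir302a, Mir302b and Mir302d differed by 2.59, 2.49 and 2.59. Day 4 replicate 3 was lowest for all 5, and without it the differences were 1.80 to 3.06, each still past the test (adjusted p = 0.000374 to 0.00442). The same array also had the lowest mean over all 296 microRNA genes, at 6.41. The other day 4 arrays had 6.53 and 6.60, and the day 6 arrays 6.61 to 6.67. Among the drug-treated day 4 arrays, replicate 3 was likewise lowest for all 5 genes, at 4.59 to 7.52. Why these arrays were low was not tested. Of those 296 genes 65 rose and 42 fell, and 11 rose at least 2-fold against 0 that fell as far. Over all genes 21.1% rose and 20.9% fell, and 1.41% rose and 0.421% fell at least 2-fold. By day 12 the means of the 5 genes were 4.21 to 5.96. Larp7, the protein-coding gene whose span holds the cluster, differed by 0.05 (adjusted p = 0.723). The array does not tell whether its probes read precursor or mature RNA.

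**Figure D1:**
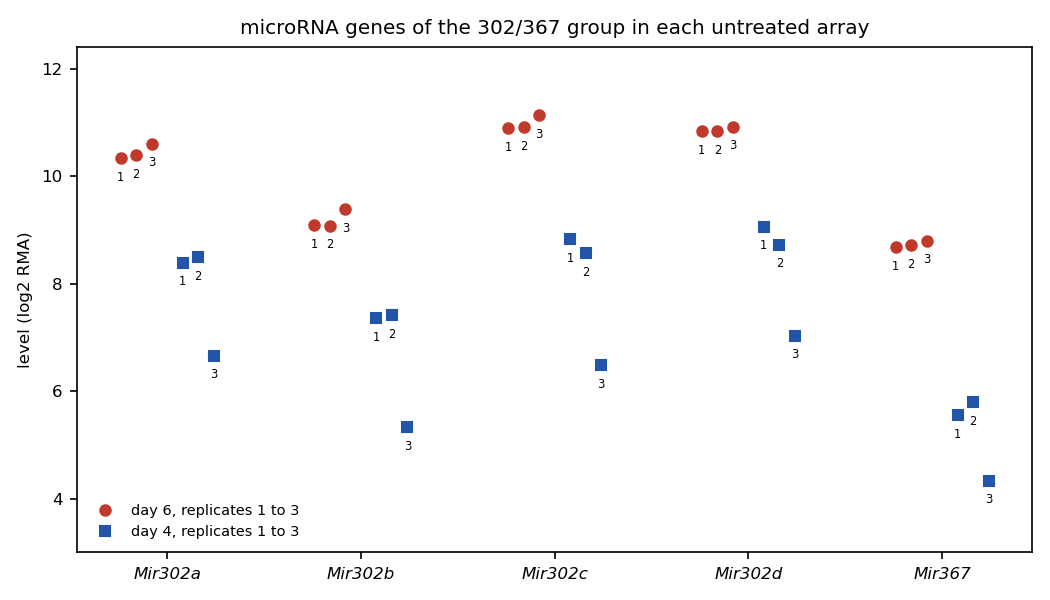
Level (log2 RMA) of the 5 microRNA genes of the cluster in each untreated array, day 6 as circles and day 4 as squares, numbered by replicate. Day 6 arrays lie above all day 4 arrays for every gene, and day 4 replicate 3 lies lowest.

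Across the transcriptome 4215 of 19938 genes rose (21.1%) and 4164 fell (20.9%), so that 42% passed the test. Most changes were small. The median absolute difference of the called genes was 0.37, and 281 genes (1.41%) rose at least 2-fold while 84 (0.421%) fell at least 2-fold. The 3 day 6 arrays all lay above the 3 day 4 arrays in 27.4% of genes and all below in 30.8%. The direction of change depended on level. Of 3987 genes with mean levels over the 24 arrays from 6.37 to 7.61, 6.8% rose and 38.2% fell, with a median difference of -0.20. Of 3987 genes from 8.89 to 10.15, 40.6% rose and 11% fell, with a median of 0.15. The median of all genes was -0.04. Rises made up 50.3% of the calls here, 40.7% after quantile normalization, 40.5% after centring the arrays on their medians and 66.6% among genes above the 40th percentile of level. Small falls of genes with low levels therefore have to be read beside these shares. Counts for the gene lists below likewise have to be read beside the 21.1% and 20.9% of all genes. The lists were chosen with earlier results of these data known, so a high share of calls in a list is not independent support.

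**Figure D2:**
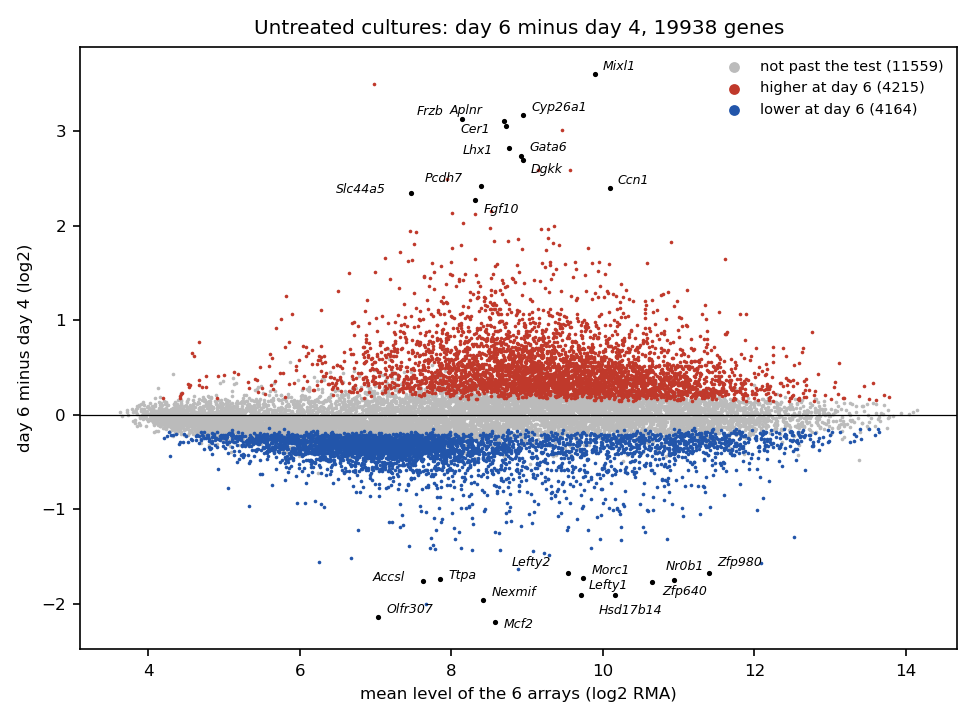
Difference, day 6 minus day 4 (log2), against the mean level of the 6 arrays (log2 RMA) for 19938 genes, with 4215 higher genes in red, 4164 lower genes in blue and the 12 largest named rises and falls labelled. Falls in the lower part of the level range are many and small, and the largest differences lie at middle levels.

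The primitive streak list held 18 genes, of which 14 rose and 1 fell, with a median of 0.86 against -0.04 over all genes. Mixl1, a homeobox gene of the streak, showed the largest rise of all 19938 genes. Its levels were 12.11, 11.24 and 11.72 at day 6, against 8.09, 7.86 and 8.32 at day 4. Every day 6 array lay far above the day 4 arrays, a 12.1-fold rise (3.60 ± 0.38, adjusted p = 3.5e-07). Lhx1, a LIM homeobox gene of the anterior streak, had 10.72, 9.47 and 10.31 at day 6 and 7.41, 7.23 and 7.40 at day 4 (2.82 ± 0.37). Mesp1, which marks the earliest mesoderm, had 8.90, 7.74 and 8.84 at day 6 against 6.81, 6.54 and 6.34 at day 4 (1.93 ± 0.28). In both genes the groups did not overlap and replicate 2 was clearly the lowest day 6 array.

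Eomes, the T-box gene that acts upstream of mesoderm and endoderm fates, already stood at 10.26 to 10.56 on day 4. It reached 11.54 to 11.95 at day 6 (1.32 ± 0.30). Gsc, the organizer gene, rose by 1.17, Sp5, a Wnt target, by 1.59, Tbx6, which directs presomitic mesoderm, by 0.88, and Fgf8 by 0.78. Msgn1 stood at 9.37, 8.54 and 9.25 at day 6 and at 8.74, 8.29 and 8.34 at day 4 (0.60, adjusted p = 0.0136). The Msgn1 call ended after quantile normalization and without day 6 replicate 1, day 6 replicate 3 or day 4 replicate 2. The list's single fall was Wnt3a, at 7.17 to 7.21 on day 6 against 7.40 to 7.68 on day 4, and that call ended without day 4 replicate 1.

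**Figure D3:**
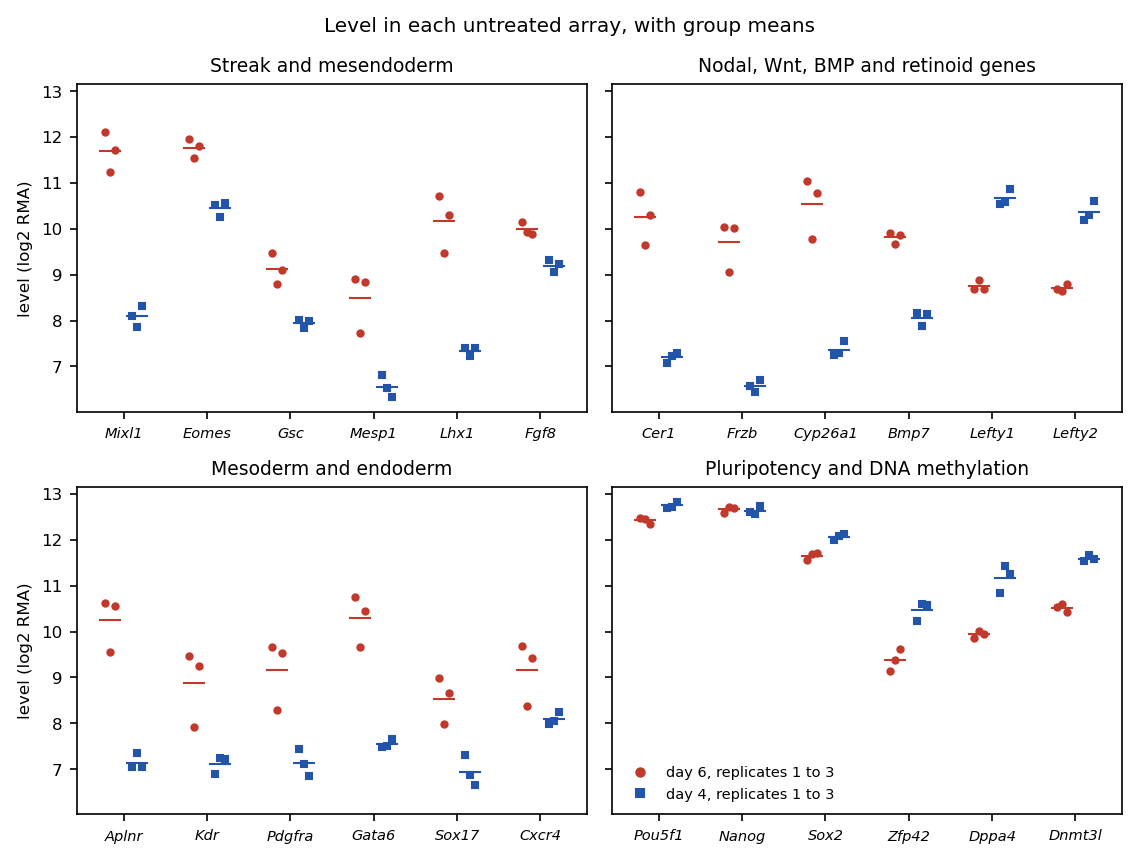
Level (log2 RMA) of 24 genes in each of the 3 day 6 arrays (red circles) and 3 day 4 arrays (blue squares), with group means as lines. Streak, mesoderm and endoderm genes lie higher at day 6 with replicate 2 usually the lowest of the red points, while Lefty1, Lefty2, Zfp42, Dppa4 and Dnmt3l lie lower.

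In the Nodal pathway, 9 of 22 measured genes rose and 8 fell. The ligand gene Nodal had 10.15, 10.25 and 10.15 at day 6 and 10.64, 10.67 and 10.69 at day 4 (-0.48 ± 0.17, adjusted p = 0.03). Although the groups were well apart, the fitted SE is shared with the other days, and the call ended when any 1 of 5 of the 6 arrays was left out (adjusted p up to 0.0764), and held without day 6 replicate 2 (adjusted p = 0.0494). Gdf3, a related ligand, fell by 1.00. Lefty1 and Lefty2, secreted antagonists that Nodal itself induces, were among the largest falls. Lefty1 stood at 8.69, 8.89 and 8.68 at day 6, against 10.53, 10.58 and 10.87 at day 4 (-1.91 ± 0.22). Lefty2 stood at 8.68, 8.64 and 8.79 at day 6 and at 10.20, 10.31 and 10.60 at day 4 (-1.67 ± 0.27). The day 6 arrays of both genes lay close together, below every day 4 array. Smad7, an intracellular inhibitor, fell by 0.68 and Skil, a repressor of Smad complexes, by 0.40.

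The secreted antagonist Cer1, which binds Nodal, BMP and Wnt, had 10.81, 9.64 and 10.29 at day 6 against 7.08, 7.22 and 7.30 at day 4, an 8.28-fold rise (3.05 ± 0.41). Cfc1, a co-receptor, rose by 1.44, with 9.22, 8.07 and 9.17 at day 6 and 7.27 to 7.58 at day 4. The other co-receptor, Tdgf1, was at 13.01 to 13.05 on day 6 and 13.27 to 13.30 on day 4, and its difference of -0.26 did not pass the test (adjusted p = 0.487). The days did not overlap, but the fitted SE is shared with the other days. Over 15 alternative limma fits its adjusted p ranged from 0.00531 to 0.588. On the receptor and effector side, Acvr1b rose by 0.60, Acvr2a by 0.68, Smad4 by 0.48 and Smad3 by 0.98, while Acvr1c fell by 0.34. Furin, a protease that matures the Nodal precursor, rose by 0.76. Pcsk6, a protease of the same family, was lower by 0.38, a call that ended without day 6 replicate 1 or day 4 replicate 3.

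Of 20 Wnt ligand and secretion genes 4 rose and 5 fell, with a median of -0.13, and 3 fell without day 4 replicate 1. The shares of 20% and 25% were near the 21.1% and 20.9% of all genes. Wnt3, the ligand needed for streak formation, had 9.34, 8.85 and 9.19 at day 6 and 7.84, 7.90 and 8.15 at day 4 (1.16 ± 0.20). Wnt5a, a non-canonical ligand of the posterior embryo, rose by 1.29, with 8.59, 7.51 and 8.35 at day 6 and 6.80 to 6.94 at day 4. Wls, which carries Wnt proteins to the cell surface, rose 2.91-fold (1.54 ± 0.12). Wnt2b was higher by 0.50, but by 0.31 (adjusted p = 0.0903) without day 6 replicate 1. Wnt4, Wnt7a, Wnt10a and Wnt16 fell by 0.30 to 0.44 together with Wnt3a to day 6 means of 6.39 to 7.86, against 6.79 to 8.23 at day 4. The Wnt10a call ended without day 4 replicate 1, and another Wnt4 probe set gave -0.05 (limma, adjusted p = 0.7).

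Of 16 Wnt receptors and agonists 9 rose and 1 fell, with a median of 0.43. Rspo3, a secreted agonist that stabilizes Wnt receptors, led with 9.92, 9.02 and 9.84 at day 6 against 7.35, 7.39 and 7.58 at day 4 (2.15 ± 0.19). Among receptors, Fzd2 rose by 0.90, Fzd8 by 0.75, Fzd6 by 0.54, Lrp6 by 0.52 and Lrp5 by 0.49. Secreted antagonists included both extremes. Frzb had 10.04, 9.06 and 10.02 at day 6 and 6.57, 6.45 and 6.71 at day 4, an 8.76-fold rise (3.13 ± 0.22). Dkk1 had 10.84, 9.67 and 10.54 at day 6 and 8.60, 8.24 and 8.21 at day 4, a 4-fold rise (SE 0.24 on the log2 scale). Notum, an enzyme that inactivates Wnt ligands, had 7.40, 7.37 and 7.52 at day 6 against 8.63, 8.56 and 8.69 at day 4 (-1.20 ± 0.10). Groups were apart in all 3 genes. Of 15 Wnt response genes 7 rose and 4 fell, and both sides held direct targets: Axin2 rose by 0.61, Lgr5 by 1.57 and Rnf43 by 0.66, while Lef1 fell by 0.40 and Cdx1 by 0.30. The Lef1 call ended without day 6 replicate 2.

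Among 26 FGF ligands and receptors 5 rose and 8 fell, and without day 4 replicate 1 only 4 fell. These were 19.2% and 30.8% of the list, beside 21.1% and 20.9% of all genes. Fgf10 rose 4.81-fold, with 10.06, 8.57 and 9.71 at day 6 against 7.24, 7.05 and 7.25 at day 4 (2.27 ± 0.23). Fgf4, the ligand of pluripotent cells, had 10.04, 10.18 and 10.12 at day 6 and 10.88, 11.08 and 10.91 at day 4 (-0.84 ± 0.20). Fgf15 fell by 1.02 and Fgf18 by 0.64. Fgf5, the epiblast ligand, lay at 10.82 to 11.09 on day 6 and 10.58 to 10.64 on day 4 (0.35 ± 0.35, adjusted p = 0.442). The days did not overlap, but the SE is shared with the other days. Over 15 alternative limma fits the adjusted p of Fgf5 ranged from 0.00577 to 0.611. Fgfr1 rose by 0.39. Of 13 feedback genes of ERK signalling 5 rose and 2 fell, and without day 6 replicate 2 the rises numbered 3. Dusp4 rose by 0.69 and Spred1 by 0.67, whereas Spry4 fell by 0.63 and Etv5 by 0.46, and Dusp6 differed by 0.24 (adjusted p = 0.179). Another Etv5 probe set gave -0.34 (limma, adjusted p = 0.0948).

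For BMP signalling, 11 of 23 ligands, receptors, Smads and antagonists rose and 5 fell (median 0.36), and 3 fell without day 4 replicate 1. Bmp7 had 9.90, 9.67 and 9.87 at day 6 and 8.17, 7.88 and 8.14 at day 4 (1.75 ± 0.14). Bmp2 had 8.23, 7.24 and 8.24 at day 6 and 6.45, 6.78 and 6.16 at day 4 (1.44 ± 0.25). Bmp4 did not follow them, at 10.33, 10.02 and 10.53 on day 6 against 10.35, 10.24 and 10.55 on day 4 (-0.08 ± 0.16, adjusted p = 0.7). Bmp6 fell by 0.38 and Bmp8b by 0.49. Of the signal carriers, Smad1 rose by 1.00, Smad5 by 0.61, Bmpr2 by 0.40 and Bmpr1a by 0.33. Chrd, the organizer's BMP antagonist, rose by 0.54 and Grem1, another antagonist, fell by 0.60.

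Among 17 BMP target genes there were 5 rises and 3 falls, with the same median of 0.36. These shares, 29.4% and 17.6%, stand beside the 21.1% and 20.9% of all genes. Id1 had 10.03, 9.43 and 10.01 at day 6 and 9.28, 9.09 and 9.25 at day 4 (0.61 ± 0.17). Id2 moved the other way, with 10.49, 10.38 and 10.51 at day 6 against 11.25, 11.24 and 11.34 at day 4 (-0.82 ± 0.13). Tbx20, a T-box gene of lateral and heart mesoderm, rose by 1.51. Calls for Msx2 (0.86), Gata3 (0.62) and Id3 (0.38) each ended when 1 of several single arrays was left out.

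Of 18 retinoic acid genes 5 rose and 4 fell, and 3 rose without day 6 replicate 2 or after quantile normalization. The list shares of 27.8% and 22.2% stand beside 21.1% and 20.9% of all genes. Cyp26a1, which degrades retinoic acid, had 11.05, 9.78 and 10.78 at day 6 and 7.26, 7.29 and 7.55 at day 4, an 8.98-fold rise (3.17 ± 0.28, adjusted p = 3.2e-08). The 2 related genes did not pass the test, with differences of -0.15 for Cyp26b1 and -0.11 for Cyp26c1. Rdh10, which makes the precursor retinaldehyde, rose by 0.93. Aldh1a3, which completes the synthesis, fell by 0.28 at levels of 7.14 to 7.22 on day 6 against 7.41 to 7.59 on day 4. The receptor genes Rarg and Rara fell by 0.53 and 0.38, and Rxra rose by 0.39.

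Because Cyp26a1 is a known retinoic acid target and among the largest rises, its promoter is shown. The 250 bases before its RefSeq start, chr19:37697558-37697807 on the plus strand of GRCm38.p6, were searched on both strands for the hexamer AGTTCA that retinoic acid receptors bind, and matches are in capitals.
Cyp26a1 promoter: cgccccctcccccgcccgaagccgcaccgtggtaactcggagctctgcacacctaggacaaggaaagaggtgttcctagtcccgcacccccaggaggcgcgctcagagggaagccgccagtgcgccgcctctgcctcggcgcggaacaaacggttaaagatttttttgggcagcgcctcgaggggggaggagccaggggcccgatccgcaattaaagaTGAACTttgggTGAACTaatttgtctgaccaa
The hexamer occurred 2 times, as its reverse complement TGAACT, starting 32 and 21 bases before the start and 5 bases apart. Of 32851 promoters of this length 11.8% held at least 1 match and 0.95% held 2 or more. The arrangement of 2 copies in the same direction 5 bases apart occurred in 7 promoters (0.0213%). Only this spelling of the hexamer was counted, with the spacing that Cyp26a1 itself has. The shares therefore describe this exact string, not retinoic acid receptor sites in general. These are matches of letters and were not tested as binding sites.

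Notch genes rose in 9 of 18 cases and fell in 5, with 3 falls left without day 6 replicate 2 and 2 without day 4 replicate 1. Receptors Notch1, Notch2 and Notch3 rose by 0.77, 0.79 and 0.59. The target genes Hes1, Hey1, Hey2 and Nrarp rose by 0.98, 0.95, 1.20 and 0.78, with Hey2 at 8.56, 8.42 and 8.41 on day 6 against 7.06, 7.20 and 7.54 on day 4. Hes5, a target in neural progenitors, fell by 0.38 instead, and Rbpj, the DNA-binding partner of the receptors, by 0.31.

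Genes of nascent and lateral mesoderm rose in 8 of 17 cases with 1 fall (median 0.42). Aplnr, the apelin receptor of migrating mesoderm, had 10.63, 9.55 and 10.56 at day 6 and 7.04, 7.35 and 7.04 at day 4 (3.11 ± 0.19). Pdgfra, a receptor of paraxial mesoderm, had 9.66, 8.29 and 9.54 at day 6 against 7.43, 7.12 and 6.85 at day 4 (2.03 ± 0.27). Kdr, the VEGF receptor of haemato-endothelial precursors, had 9.46, 7.93 and 9.26 at day 6 against 6.89, 7.25 and 7.22 at day 4 (1.76 ± 0.28). In these 3 genes replicate 2 was the lowest day 6 array by more than 1 unit and still exceeded each day 4 array. The list mean was 8.40, 7.71 and 8.28 at day 6 against 7.39, 7.32 and 7.32 at day 4. Without day 6 replicate 2, 9 genes of the list rose. Foxc2 owed much of its rise of 1.04 to 1 array, with 8.94 in day 6 replicate 1 beside 7.53 and 7.51. Without that array its difference was 0.57 (adjusted p = 0.288). Foxf1, which marks lateral plate mesoderm, stood at 7.77 to 8.33 on day 6 and 7.96 to 8.16 on day 4 (0.02, adjusted p = 0.959), while another Foxf1 probe set gave 1.17 (adjusted p = 0.013).

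Definitive endoderm genes rose in 9 of 14 cases and none fell (median 0.76). Gata6, which directs endoderm and heart mesoderm, had 10.76, 9.67 and 10.44 at day 6 and 7.48, 7.51 and 7.66 at day 4 (2.74 ± 0.20). Sox17 had 8.98, 7.98 and 8.66 at day 6 against 7.31, 6.87 and 6.65 at day 4 (1.60 ± 0.19). Cxcr4, a chemokine receptor, rose by 1.07, Gata4 by 1.16, Foxa2 by 0.85 and Hhex by 0.67. Foxa1 was higher by 0.44 in a call that ended without day 6 replicate 1 or replicate 3, and Foxa3 by 0.21 (adjusted p = 0.0828). Day 6 replicate 2 was the lowest day 6 array in all 9 genes that rose. Several of the 9, among them Cer1, Gata4 and Gata6, also mark mesoderm or visceral endoderm. Extraembryonic endoderm genes rose in 2 of 17 cases, Lama1 (0.73) and Lamb1 (0.59), both laminin subunits, and fell in 3, or in 1 without either of the 2 arrays described above. The shares of 11.8% rises and 17.6% falls lay below the 21.1% and 20.9% of all genes. The serum protein gene Ttr did not pass the test, at 7.13 to 7.45 on day 6 and 7.16 to 7.71 on day 4.

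Of 21 genes of the naive state 12 fell and 1 rose (median -0.54), and of 14 general pluripotency genes 5 fell and 0 rose. Nr0b1 had 9.89, 10.17 and 10.15 at day 6 against 11.74, 11.82 and 11.88 at day 4, a 3.36-fold fall (-1.75 ± 0.30). Zfp42, also called Rex1, had 9.14, 9.39 and 9.62 at day 6 and 10.23, 10.59 and 10.57 at day 4 (-1.08 ± 0.22). Nr5a2 fell by 1.12, Gbx2 by 0.81, Klf2 by 0.54 and Klf4 by 0.40. The single rise was Socs3, the feedback inhibitor of LIF signalling, by 0.35, and another Socs3 probe set gave -0.32. Esrrb was lower by 0.57, a call that ended when any 1 of the 6 arrays was left out.

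Pou5f1, Sox2 and Nanog, the central factors, did not pass the test. Pou5f1 was at 12.48, 12.46 and 12.35 on day 6 and 12.70, 12.71 and 12.83 on day 4 (-0.32 ± 0.24, adjusted p = 0.298). Sox2 averaged 11.65 ± 0.09 on day 6 and 12.07 ± 0.07 on day 4 (SD, n = 3 each, difference -0.42 ± 0.23, adjusted p = 0.134). Although the 3 arrays of each day did not overlap for these 2 genes, the SE of the fit is shared with the other days. In a fit with only the arrays compared both passed (limma, adjusted p = 0.00499 for Pou5f1 and 0.00147 for Sox2), and Sox2 also passed with array weights (adjusted p = 0.00567). Nanog did overlap, at 12.59 to 12.72 on day 6 and 12.56 to 12.74 on day 4 (0.04). Dppa2 and Dppa4, chromatin proteins of pluripotent cells, fell by 1.57 and 1.24. Of 16 genes of the primed epiblast 3 rose and 6 fell. Cdh2, N-cadherin, rose by 1.11 and Pou3f1 fell by 0.89, while Otx2 differed by 0.13 (adjusted p = 0.793).

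Enzymes that set DNA methylation fell in 4 of 8 cases and rose in none. Dnmt3l, a cofactor of de novo methylation, had 10.53, 10.60 and 10.42 at day 6 and 11.53, 11.66 and 11.57 at day 4 (-1.07 ± 0.26). Dnmt3a fell by 0.72 (± 0.07), and the demethylating enzymes Tet1 and Tet2 by 0.54 and 0.55. Dnmt1, which maintains methylation, lay at 10.96 to 11.01 on day 6 and 10.93 to 11.09 on day 4 (-0.02).

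Epithelial genes rose in 11 of 20 cases and fell in 2 (median 0.55), and mesenchymal genes rose in 10 of 15 and fell in 1 (median 0.42). Keratins of simple epithelia led: Krt18 had 11.80, 11.77 and 11.87 at day 6 against 10.00, 10.05 and 9.91 at day 4 (1.83 ± 0.14), Krt19 rose by 1.80 and Krt8 by 1.65. Dsp, a desmosome protein, rose by 1.54, and the tight junction genes Cldn4, Cldn7 and Crb3 by 1.09, 0.95 and 0.92. Here the 3 day 6 arrays were alike and replicate 2 was not apart. Cdh1, E-cadherin, stayed at 12.03 to 12.17 on day 6 and 12.07 to 12.19 on day 4 (-0.02, adjusted p = 0.921). Grhl2, an activator of epithelial genes, fell by 0.93. On the mesenchymal side Cdh11 had 10.66, 9.70 and 10.27 at day 6 and 8.32, 8.17 and 8.53 at day 4 (1.87 ± 0.19). Zeb2, a repressor of E-cadherin, rose by 1.41 and Snai1, a related repressor, by 0.68. Vim rose by 0.30, and Fn1 by 0.36 in a call that ended without day 6 replicate 1 or day 4 replicate 1. Among 19 matrix genes 7 rose and 2 fell: the basement membrane genes Hspg2 (0.89), Lama1 and Lamb1 were among the rises, and Col18a1 fell by 0.39.

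Of 27 neural progenitor genes 3 rose and 10 fell (median -0.25), and of 18 neuronal genes 0 rose and 4 fell. The neuronal falls, 22.2% of that list, were near the 20.9% of all genes. Nes, an intermediate filament also made outside the nervous system, had 9.25, 9.66 and 9.35 at day 6 and 8.24, 8.26 and 8.41 at day 4 (1.11 ± 0.17). Msi1 and Sox11 rose by 0.68 and 0.45. Sox1, the locus of the line's reporter, had 8.37, 8.37 and 8.40 at day 6 against 8.91, 8.72 and 8.66 at day 4 (-0.38 ± 0.09). Pax6 fell by 0.67, Tubb3 by 0.79 and Neurod1 by 1.03.

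Of 37 measured Hox genes 0 rose and 6 fell (median -0.19), and the median level of the list, 7.10, lay in the range where falls were most frequent. The falls were 16.2% of the list, beside 20.9% of all genes. Hoxd13, which fell by 0.69, had the largest difference, and Hoxb1, an anterior member, had 8.63, 7.72 and 8.42 at day 6 and 8.28, 8.12 and 8.17 at day 4 (0.07, adjusted p = 0.801). Of the Cdx genes, Cdx1 fell as given above, and Cdx2 and Cdx4 differed by -0.09 and 0.05. Posterior and presomitic genes rose in 7 of 15 cases and fell in 3, with Rspo3, Wnt5a, Tbx6 and Fgf8 among the rises. After quantile normalization 4 of the 15 rose, and without day 4 replicate 1 only 1 fell.

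Of 23 endothelial and blood genes 4 rose and 5 fell, with 3 falls left without day 6 replicate 2 and 2 without day 4 replicate 1. These shares, 17.4% and 21.7%, were near the 21.1% and 20.9% of all genes. Flt1, a VEGF receptor, had 10.60, 10.11 and 10.31 at day 6 against 8.42, 8.92 and 9.29 at day 4 (1.46 ± 0.16). Runx1 and Lmo2, regulators of early blood, rose by 0.95 and 0.60. Etv2 was higher by 0.65, with day 4 replicate 1 low at 8.37 beside 9.32 and 9.34. Without that array its difference was 0.33 (adjusted p = 0.21), and the call also ended without day 6 replicate 1 and after quantile normalization. The embryonic globin Hbb-bh1 lay at 5.70 to 5.91 on day 6 and 5.47 to 5.80 on day 4. Of 20 cardiac genes 1 rose, Actc1 by 1.48, and 3 fell, while 3 rose without day 4 replicate 1. Trophoblast genes rose in 4 of 11 cases, with Tead4 at 0.73 and Krt7 at 0.58, and Elf5, a defining trophoblast factor, differed by -0.11 at 6.67 to 6.96 on day 6 and 6.75 to 7.08 on day 4. Germline genes rose in 0 of 15 cases and fell in 4, led by Tdrd12 (-1.31) and Tex19.1 (-0.95), with 7 falls after centring the arrays. Neural crest genes rose in 1 and fell in 2 of 11 cases, surface ectoderm genes rose in 1 and fell in 4 of 12, and the 5 measured genes of the 2-cell-like state showed 0 rises and 2 falls. Falls made up 26.7% of the germline list and 18.2% of the neural crest list, beside 20.9% of all genes. For surface ectoderm and the 2-cell-like state they made up 33.3% and 40%. The cardiac shares of 5% rises and 15% falls lay below those of all genes.

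Hypoxia and glycolysis genes rose in 16 of 31 cases and fell in 1 (median 0.21). Vegfa had 10.84, 10.76 and 10.81 at day 6 and 9.35, 9.55 and 9.72 at day 4 (1.26 ± 0.10). Pfkfb3, an activator of glycolysis, rose by 1.13, Ndrg1 by 1.07 and Egln1, an oxygen sensor, by 1.02. In 13 of the 16 rises replicate 3 was the lowest day 6 array. Of the glycolytic chain itself, Pfkl rose by 0.42 and Slc2a3, a glucose transporter, by 0.34, while Ldha differed by 0.05 (adjusted p = 0.501). The single fall, Hk1, rests on 1 of 2 probe sets, which gave -0.29 and 0.35.

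Of 26 proliferation genes 10 fell and 0 rose, with a median of -0.12, and the falls included Cdc6 (-0.55), Rrm2 (-0.47), Mcm2 (-0.30) and Pcna (-0.29). Among G1 regulators, of which 4 of 20 rose and 6 fell, Ccne1, cyclin E1, had 11.48, 11.61 and 11.50 at day 6 and 12.57, 12.50 and 12.54 at day 4 (-1.01 ± 0.12). Mycn fell by 0.69 and the inhibitors Cdkn1b and Rb1 rose by 0.49 and 0.56. The G1 shares of 20% and 30% stand beside the 21.1% and 20.9% of all genes. Immediate early genes rose in 10 of 17 cases and fell in 1. Ccn1, a matrix protein induced by mechanical and growth signals, rose 5.27-fold, with 11.15, 11.33 and 11.39 at day 6 against 9.05, 8.68 and 8.93 at day 4 (2.40 ± 0.24). Jun rose by 1.30 and Fos by 0.48. Without day 6 replicate 2 the immediate early count was 6 rises and 0 falls.

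Of 14 p53 response genes 4 rose and 0 fell, led by Btg2 (0.94) and Pmaip1 (0.80). The p53 rises were 28.6% of that list. The unfolded protein response had 3 rises and 3 falls among 20 genes (6 falls after quantile normalization), with Ddit3 higher by 0.78 and Xbp1 lower by 0.46. Its shares of 15% each way lay below the 21.1% and 20.9% of all genes. Cholesterol synthesis genes fell in 6 of 15 cases, by 0.26 to 0.35, and the count was 10 after quantile normalization and 11 after centring. Calcineurin and NFAT genes, which the drugs of the other groups act on, rose in 8 of 14 cases and fell in 1, among them Ppp3cc (0.79), a catalytic subunit, and Nfatc4 (0.58). Of 12 genes often used as constant references 2 rose, B2m by 0.85 and Gusb by 0.21, and 0 fell. The Gusb call ended after quantile normalization and without day 6 replicate 3.

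**Figure D4:**
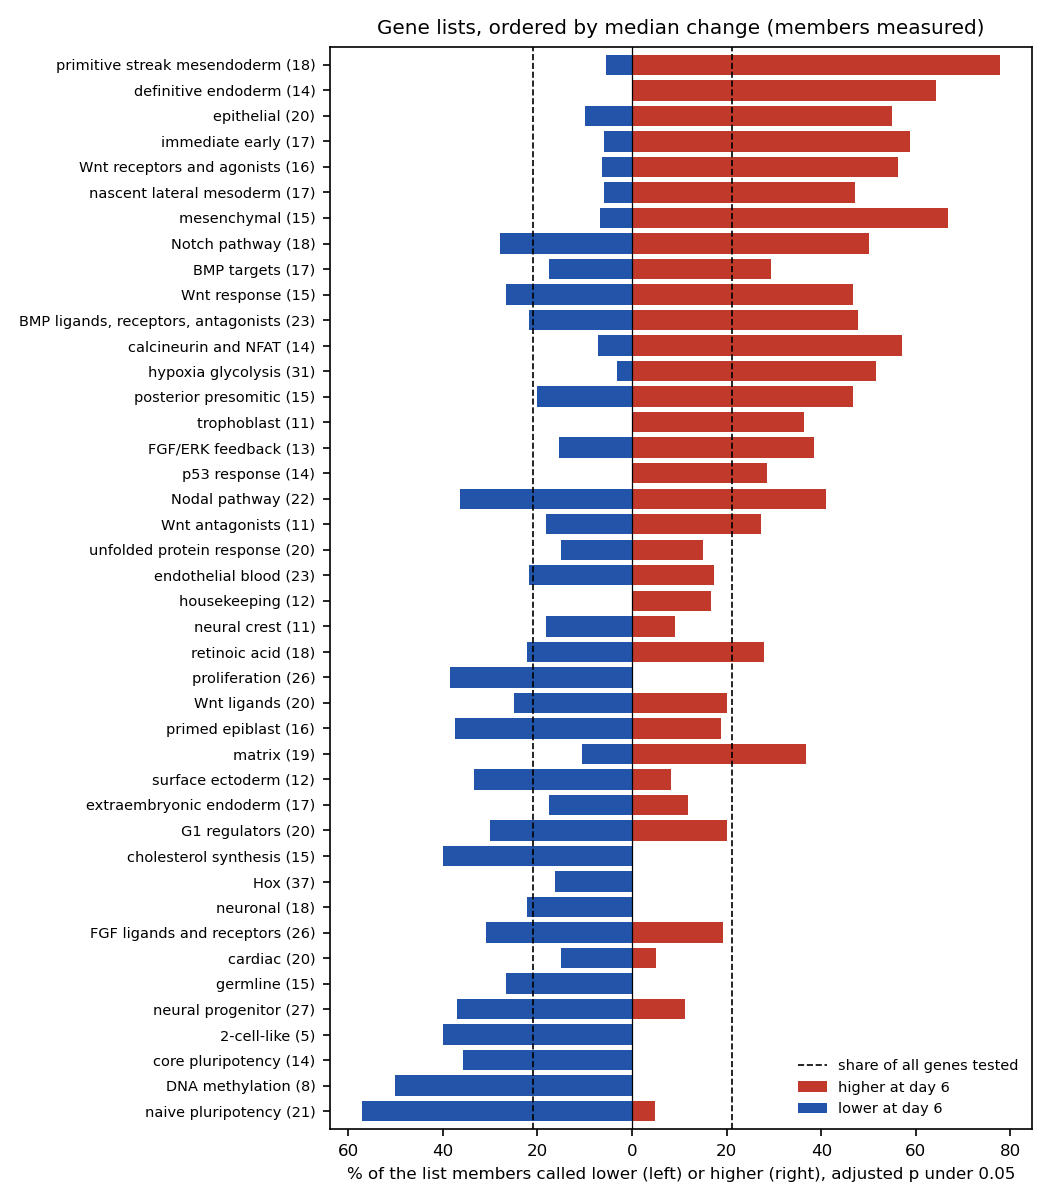
Share of each gene list called higher (right, red) or lower (left, blue) at day 6, with the number of measured members in brackets, lists ordered by median difference, and dashed lines at the shares over all 19938 genes (21.1% higher, 20.9% lower). Streak and definitive endoderm lists lie at the top, and naive pluripotency and DNA methylation at the bottom.

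Several of the largest changes lay outside these lists. Dgkk, a diacylglycerol kinase gene, had 10.60, 9.84 and 10.42 at day 6 and 7.34, 7.46 and 7.99 at day 4 (2.69 ± 0.22). Pcdh7, a protocadherin, rose by 2.42 and Slc44a5, a choline transporter-like gene, by 2.34. With predicted and small RNA genes passed over, the largest fall was that of Mcf2, a guanine nucleotide exchange factor. Mcf2 had 7.57, 7.58 and 7.30 at day 6 against 9.46, 9.89 and 9.67 at day 4, a 4.56-fold fall (-2.19 ± 0.14). Olfr307, annotated as an olfactory receptor, fell by 2.14, Nexmif by 1.96, Hsd17b14, a steroid dehydrogenase, by 1.91, Zfp640 by 1.77, Accsl by 1.76, Ttpa, the vitamin E transfer protein, by 1.74, and Morc1, a gene of the male germline, by 1.73. The 12 named falls also include Zfp980 (-1.67). Groups that do not overlap were part of how these genes were chosen.

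The change over this interval was next set against the change from day 6 to day 8 of the same untreated cultures. Both intervals use the day 6 arrays, so a high or low day 6 array moves the 2 changes in opposite directions. The change from day 4 to 6 exceeded the next one in 3845 genes (19.3%) and was below it in 3963 (19.9%), 39.2% in all. Without day 6 replicate 2 the counts were 2719 and 2370, and without day 6 replicate 3 fewer genes, 2506, were below. The 12 largest rises and 12 largest falls, with small RNA and predicted genes passed over, were chosen by their change from day 4 to 6. A smaller change afterwards therefore follows in part from the choice. From day 6 to day 8 the 12 risen genes differed by -0.81 to 0.99 and the 12 fallen ones by -0.68 to 0.08. Mixl1 averaged 8.09 ± 0.23 at day 4, 11.69 ± 0.43 at day 6, 10.88 ± 0.64 at day 8 and 7.02 ± 0.33 at day 12 (SD, n = 3). Gata6 averaged 7.55, 10.29, 11.28 and 11.45 on these days, and Cyp26a1 7.37, 10.53, 10.87 and 8.06. Lefty1 averaged 10.66, 8.75, 8.46 and 6.01.

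Other genes moved later. Hbb-bh1 averaged 5.66 ± 0.17 at day 4, 5.83 ± 0.11 at day 6 and 10.76 ± 1.56 at day 8 (SD, n = 3), a difference between the intervals of -4.77 ± 0.85. The visceral endoderm gene Ttr, the globin Hba-x and the netrin receptor Unc5c likewise did not pass the test from day 4 to 6 and lay at 10.51 to 10.89 on average at day 8. Pou5f1 averaged 12.75, 12.43, 11.68 and 8.04 over days 4, 6, 8 and 12, so most of its decline lay after day 6.

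**Figure D5:**
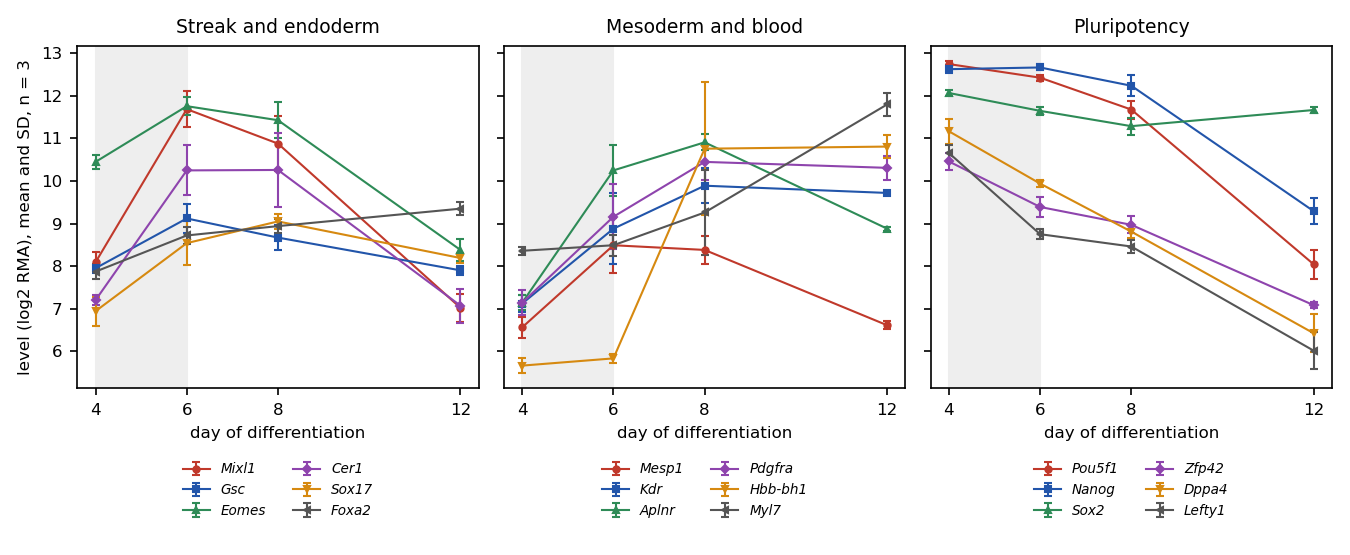
Mean level (log2 RMA, SD as bars, n = 3 arrays) of 18 genes at days 4, 6, 8 and 12 in untreated cultures, with the interval from day 4 to day 6 shaded. Mixl1 and Cer1 climb within the shaded interval and fall to about 7 by day 12, Hbb-bh1 climbs after it, and Pou5f1 and Nanog fall mostly after day 8.

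The same interval was measured in cultures given FK506 and cyclosporin A, which share no array with the untreated ones. The drugs were present from day 3, so the treated day 4 arrays are not an untreated start. In treated cultures 19.1% of genes rose and 25.1% fell. With small RNA and predicted genes passed over, all 12 of the largest untreated rises also rose there, by 2.18 to 4.01. All 12 of the largest falls chosen in the same way fell there, with differences of -2.47 to -1.32. Of the streak list 15 of 18 genes rose and 1 fell in treated cultures, with a median of 1.22.

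The change differed between untreated and treated cultures in 19 genes (0.0953%), larger in untreated cultures in 4 (0.0201%) and smaller in 15 (0.0752%), while 1617 genes had an unadjusted p under 0.05. In the list of nascent and lateral mesoderm 14 of 17 genes rose under the drugs (median 1.98) and 5 of them differed from the untreated change. Kdr rose by 1.76 in untreated cultures and by 3.88 in treated ones, whose means were 10.70 at day 6 and 6.82 at day 4 (-2.12 ± 0.40, adjusted p = 0.0374). Foxf1 differed by 0.02 in untreated cultures and rose by 2.65 in treated ones (-2.63 ± 0.38, adjusted p = 0.0058). Bmp4 differed by -0.08 in untreated cultures and rose by 1.05 in treated ones (-1.13 ± 0.22, adjusted p = 0.0417). Without untreated day 6 replicate 2, 0 genes were larger in untreated cultures (limma, 699 at an unadjusted p under 0.05) and 5 were smaller. Leaving out each of the 12 arrays in turn gave 0 to 9 larger and 4 to 59 smaller, so these calls depend on single arrays. The Foxf1 call held under each of 21 alternative fits, and the Kdr call ended under 11 of them.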

How the data were processed

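Total RNA of 24 embryoid body samples was hybridised to Affymetrix arrays, 3 biological replicates per group per the labels. The labels do not say that replicates were separate cultures, so p-values measure only the spread between these samples. The deposited values are log2 signals made with RMA and Affymetrix Expression Console, per the submitters' processing notes, and tool versions and the array's genome build are not stated in those notes or the labels. No column of per-sample values was left unused. No pair of arrays was a copy of another, the smallest SD of the difference between 2 arrays being 0.175.

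Of 35556 probe sets, 21789 had 1 gene symbol in the platform annotation, 1621 had several and 12146 were not listed. 21698 of those with 1 symbol matched the gene table. Where a gene had several (999 genes), the probe set with the highest mean was kept. The number of arrays limits the precision, and no detection calls were used.

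A limma model (3.58.1, R 4.3.3) with 1 mean per group was fitted to all 24 arrays (16 residual degrees of freedom) and p-values were adjusted by Benjamini-Hochberg over 19938 genes, with calls at 0.05. The difference between 2 intervals was a contrast of the same fit. The fit was tested on simulated data. Alternatives were a filter on level, quantile normalization, median centring, other probe set rules, an intensity trend, array weights, a replicate block, only the groups compared, leaving out each array, and stricter thresholds. Tables and plots used Python 3.11.15 with pandas 2.3.3, numpy 2.4.6 and matplotlib 3.10.9.

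Members and the 42 gene lists were chosen with earlier results of these data known. Genes named are the 12 largest rises and falls with groups apart (predicted and small RNA genes passed over), key genes of the pathways, up to 8 of each list in each direction by smallest p, filled with members not called, the 5 largest differences each way between intervals, and whole families described one by one.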

Additional observations from a re-analysis of the deposited data

Results flagged for a closer look

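The change from day 4 to 6 differed from the change from day 6 to 8 in 7808 genes. Both intervals use the day 6 arrays. The largest positive differences were those of Mixl1 (4.41), Sema3c, a secreted guidance protein (3.40), Bhlhe41, a circadian repressor (3.27), Ppp4r4 (3.10) and Cer1 (3.04). Sema3c had 8.96, 9.67 and 9.49 at day 6 against 7.38, 7.19 and 7.20 at day 4, and averaged 8.10 at day 8. Bhlhe41 had 10.32, 10.20 and 9.81 at day 6 against 8.18, 8.49 and 8.83 at day 4, and averaged 8.45 at day 8. The days did not overlap in either gene, and replicate 2 was not the lowest day 6 array. The largest negative differences were those of Hbb-bh1 (-4.77), Ttr (-3.46), Hba-x (-3.23), Unc5c (-3.19) and Dpp4 (-3.18). Dpp4, a cell surface peptidase, fell by 1.42, with 7.14, 7.10 and 7.00 at day 6 against 8.31, 8.64 and 8.55 at day 4, and averaged 8.84 at day 8.

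The change from day 4 to 6 differed between untreated and drug-treated cultures in 19 genes. It was larger in untreated cultures for Castor2 (0.76), Fcho1 (0.58) and Pgm1 (0.48), calls that ended under 11, 11 and 9 of 21 alternative fits. It was smaller in untreated cultures for Foxf1 (-2.63), Capn6 (-2.36), Asb4 (-2.17), Prdm6 (-2.14), Kdr (-2.12), Msx2 (-2.03) and Bmp4 (-1.13). Asb4 rose by 1.79 in untreated and by 3.96 in treated cultures, and its call ended under 2 fits. A second Foxf1 probe set passed the test for the change from day 4 to 6 in untreated cultures with 1.17 (adjusted p = 0.013), where the one used gave 0.02.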

How the results depend on the processing

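Of 319 named genes called from day 4 to 6, 243 kept their call under every alternative and 76 lost it under at least 1. Leaving out an array ended between 16 (day 4 replicate 3) and 43 (day 4 replicate 1) of these calls, and quantile normalization ended 27. The rises numbered 3404 to 3972 and the falls 2635 to 4092 with 1 array left out. At least 2-fold, 281 rose and 84 fell; 1994 fell among genes above the 40th percentile of level, and 2353 at an adjusted p under 0.01. The other alternatives left both counts within 1.5 times. For the next interval, differences above 0 numbered 2719 to 3868 with 1 array left out, 2531 at an adjusted p under 0.01 and 796 at least 2-fold. Those below 0 numbered 2370 to 4179, 2003 and 352, and 1518 above the 40th percentile. Against treated cultures, differences above 0 (4) numbered 0 to 9 with 1 array left out, 2 with an intensity trend, 305 with array weights, 0 with only the groups compared (1262 at an unadjusted p under 0.05), and 0 at the stricter limma thresholds of 0.01 and 2-fold. Those below 0 (15) numbered 4 to 59, 8, 309, 5 and, at 0.01, 3. The cause was not tested. With a replicate block the counts were 4140 rises and 4180 falls, 3885 and 4158 against the next interval, and 5 and 28 against treated cultures. Whether replicate numbers pair the untreated samples was not settled. Deviations from the group mean correlated by 0.30, 0.15 and 0.06 in same-numbered day 6 and day 4 arrays. In other-numbered arrays they correlated by -0.23 to 0.16. Hk1 reversed, to 0.03 (adjusted p = 0.752), with the mean of its probe sets. Signal over background is not known here.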

Other observations

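A run of 6 measured zinc finger genes on chromosome 4 was lower at day 6 in every case. The run was chosen after its values had been seen. Zfp980 fell by 1.67, Zfp982 and Zfp985 by 1.41 each, Zfp979 by 1.31, Zfp600 by 1.25 and Zfp991 by 0.31. Among all 347 measured genes named Zfp, 80 rose and 73 fell, 3 at least 2-fold upward and 9 at least 2-fold downward. Over all genes 21.1% rose and 20.9% fell, and 1.41% rose and 0.421% fell at least 2-fold. Genes of such a run have similar sequences and may share probes, so the values of single members are uncertain.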
